A study of Mus musculus with 13 samples.

Results

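The adhesion G protein-coupled receptors are a family of membrane receptors, and they were taken here as every gene whose symbol begins with Adgr, a family letter and a digit and whose raw count summed to more than 10 over 13 libraries. The rule found 26 members among 54513 genes in the count table. The 2 further matching symbols, Adgrd2-ps and Adgrg4, had summed counts of 4 and 1 and were not members. The libraries hold total RNA of formalin-fixed, paraffin-embedded lungs taken at day 21. The mice were male C57Bl/6, aged 7 to 8 weeks, and had received either bleomycin, an agent that breaks DNA and scars the mouse lung, or saline. There were 4 bleomycin libraries in batch 1 (replicates 5 to 8), 4 bleomycin libraries in batch 2 (replicates 1 to 4) and 5 saline libraries, all in batch 1. No allele or further agent is named for any group. Whether each replicate is its own animal is not stated, so the p-values cover the spread among these libraries, part of which may be technical.

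Total counts were 21727502 to 28885129 in batch 1 bleomycin libraries, 6337147 to 12982422 in batch 2 bleomycin libraries and 9527580 to 26043735 in saline libraries. The members together took 38959 to 47363 counts, 9871 to 22059 counts and 20309 to 76347 counts of these. The labels of bleomycin replicate 8 conflict: the title calls it a control, while its treatment and library name give bleomycin, the group in which it was used. Its Adgre1 level was 50.3 CPM and its Adgrl3 level 80.7 CPM, within the range of the other bleomycin libraries (34.8 to 58.0 CPM and 74.4 to 93.3 CPM) and outside that of saline (12.8 to 17.8 CPM and 170 to 211 CPM). These members had the lowest p of the family in a fit that used this library as bleomycin, so their levels do not settle its label. For Adgrl1 this library stood at 102 CPM, against 74.4 to 77.6 CPM in the other batch 1 bleomycin libraries. With that library moved to saline, edgeR called 0 members higher and 1 lower (Adgrl3), where 5 and 7 had an unadjusted p under 0.05. All 8 alveolar type 2 markers listed for the lung, among them Sftpc, passed the filter on low counts.

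Receptors of this family carry a long extracellular part with adhesion domains, joined to a bundle of membrane-spanning helices. Most cut themselves at a site close to the membrane, and the short stretch behind the cut can act as a tethered agonist once a ligand in the matrix or on a neighbouring cell pulls the outer part away. In the lung they are best known from capillary endothelium and type 2 cells (Adgrf5), from vessels (Adgrl4) and from macrophages (Adgre1, the F4/80 antigen).

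In bleomycin lungs the family took a smaller share of the counts, and its members a different mix, than in saline lungs. Levels are in CPM (counts-per-million) of the scaled library total, and between genes they are compared per kilobase of exon. Summed over the 26 members, the level was 225 to 265 CPM per kilobase in batch 1 bleomycin libraries, 222 to 257 in batch 2 bleomycin libraries and 309 to 367 in saline libraries. Every bleomycin library was below every saline library. Adgrf5 was the most abundant member per kilobase in every group, with 81.2 CPM per kilobase in batch 1 bleomycin, 82.1 in batch 2 bleomycin and 146 in saline. Its share of the family's summed CPM per kilobase was 33.9% ± 3.81 in batch 1 bleomycin, 33.9% ± 3.20 in batch 2 bleomycin and 44.2% ± 0.88 in saline (SD, n = 4, 4 and 5). The share of Adgre1 was 6.40% ± 1.54, 5.64% ± 1.46 and 1.44% ± 0.16 in the same groups. In saline the order by mean CPM per kilobase ran Adgrf5, Adgre5 (69.99), Adgrl4 (35.2), Adgrg1 (11.3) and Adgrl3 (11.1), and the last 2 of these did not differ beyond their spread. In batch 1 bleomycin it ran Adgrf5, Adgre5 (42.4), Adgrl4 (23.2), Adgre1 (15.01) and Adgrg1 (14.9), and again the last 2 did not differ beyond their spread. In bulk tissue, fewer cells of a type and less RNA per cell cannot be told apart.

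**Figure D1:**
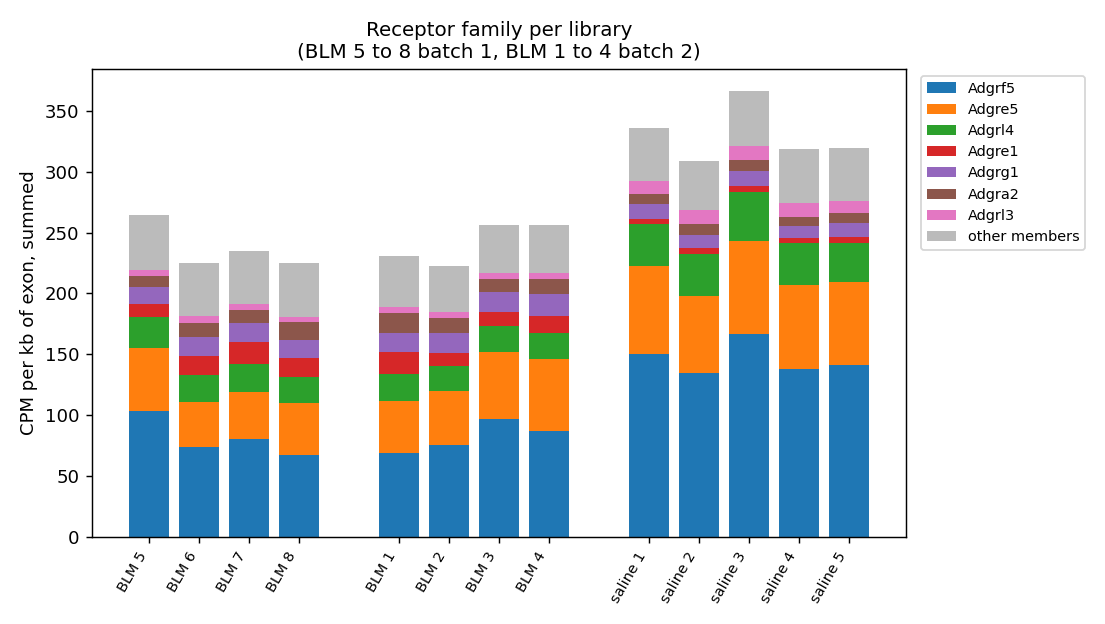
Summed CPM per kilobase of exon for the receptor family in each library (bleomycin, BLM, batch 1, then batch 2, then saline), with 7 members in colour and the rest in grey. Saline bars reach 309 to 367 CPM per kilobase, above all bleomycin bars (222 to 265), mostly through taller Adgrf5 and Adgre5 segments.

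Of 26 members, 20 passed the filter on low counts, and in batch 1 bleomycin 6 were higher and 6 lower than saline by edgeR's quasi-likelihood test at a Benjamini-Hochberg adjusted p under 0.05. Over all 20468 tested genes 30.9% were called, 17.5% higher and 13.4% lower. The tested members had a median log2 change of 0.03, as had all tested genes (0.03). Low genes pass the filter through the group where they are high, so the share called among tested members is a description. Those that rose included Adgra2, Adgrb2, Adgre1, Adgrg1 and Adgrg3, and the 6 that fell were Adgra3, Adgre5, Adgrf5, Adgrl3, Adgrl4 and Adgrv1. In 5 of the rises (all but Adgrb2) and all 6 falls the batch 1 bleomycin and saline libraries did not overlap, which held for 14% of all tested genes in the upward direction and 11.3% in the downward direction. In batch 2, which has no saline of its own, 5 members were higher and 7 lower than the batch 1 saline libraries, where 28.9% of all tested genes were called, 15.7% higher and 13.2% lower. In that contrast batch and treatment cannot be told apart, and it shares its saline libraries with the batch 1 contrast. Within batch 1 the library names of bleomycin and saline carry numbers from separate runs, whose meaning is not given, so anything they mark cannot be told apart from treatment.

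**Figure D2:**
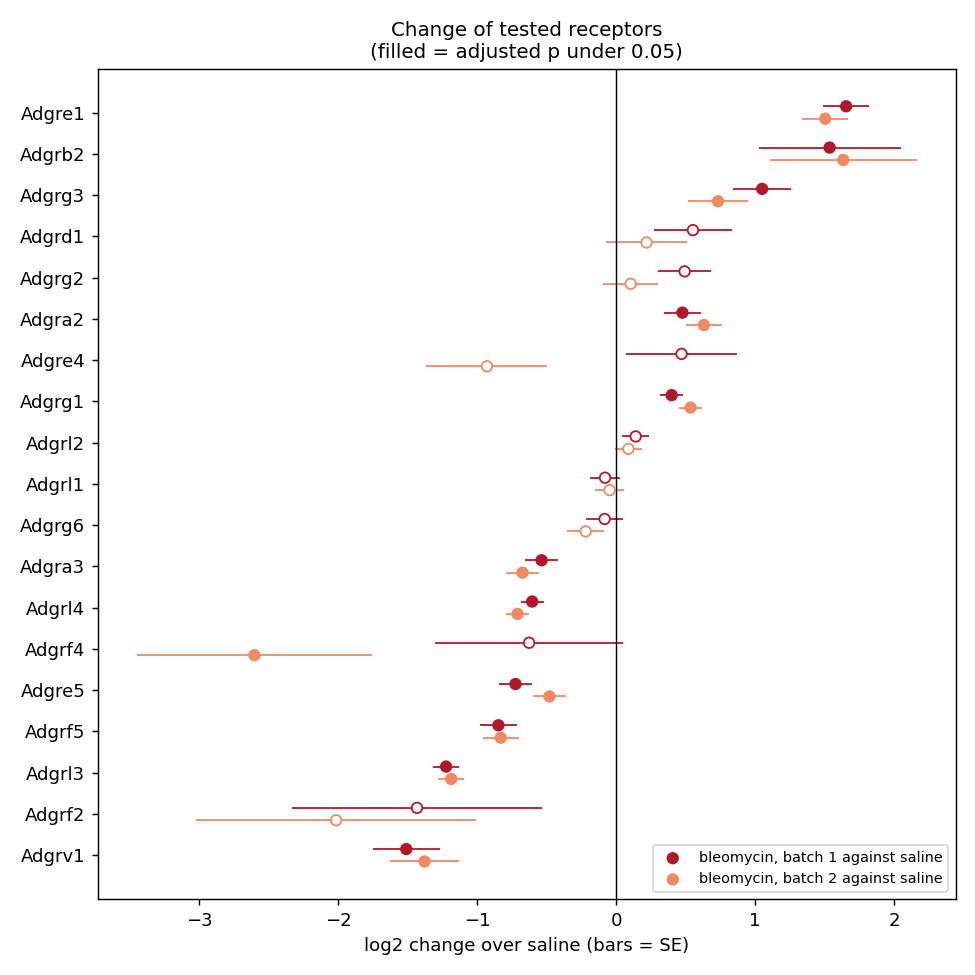
Log2 change over saline of 19 tested receptors (points, with SE), for batch 1 bleomycin in red and batch 2 bleomycin in orange, where filled points have an adjusted p under 0.05. In batch 1 the values run from 1.66 for Adgre1 down to -1.51 for Adgrv1, and Adgre4 is the member whose point estimates have opposite signs in the 2 batches (0.47 and -0.93), neither of which passed.

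Endothelial receptors went different ways: 2 of 4 fell, 1 rose and 1 did not pass. Adgrf5, also known as GPR116, restrains surfactant release from type 2 cells and is abundant in lung endothelium. It stood at 932, 667, 720 and 606 CPM in batch 1 bleomycin libraries, at 622, 681, 872 and 784 CPM in batch 2 bleomycin libraries and at 1352, 1211, 1500, 1239 and 1271 CPM in saline libraries. Every bleomycin library was below every saline library. The log2 change was -0.85 in batch 1 (SE 0.13, adjusted p = 0.000178) and -0.83 in batch 2 (SE 0.13, adjusted p = 0.000247).

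Adgrl4, also called ELTD1, is an endothelial receptor linked to vessel growth. It held 117, 104, 109 and 96.2 CPM in batch 1 bleomycin, 102, 95.0, 100.3 and 98.4 CPM in batch 2 bleomycin, and 160, 158, 182, 160 and 147 CPM in saline. The bleomycin libraries lay close together and all below saline (log2 change -0.60, SE 0.08, adjusted p = 6.51e-05 in batch 1, and -0.71, SE 0.08, adjusted p = 2.10e-05 in batch 2). Its neighbour on chromosome 3, Adgrl2, is a latrophilin, a receptor of teneurins and FLRT proteins on other cells. It had 159, 141, 160 and 124 CPM in batch 1 bleomycin, 140, 123, 150 and 149 CPM in batch 2 bleomycin, and 138, 118, 144, 138 and 123 CPM in saline. These groups overlapped, and the log2 change of 0.14 (SE 0.10, adjusted p = 0.294) did not pass. The ratio of Adgrl2 to Adgrl4 CPM was 1.28 to 1.47 in batch 1 bleomycin, 1.30 to 1.52 in batch 2 bleomycin, against 0.747 to 0.865 in saline, without overlap.

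The sequences upstream of this pair are shown because the genes are neighbours in the order of protein-coding genes and only Adgrl4 was called. Their windows lie far apart and on opposite strands, as the positions below show. They are the 250 bases before the annotated start from RefSeq on build GRCm38.p6, read along the gene's strand. AGGAAG or its reverse complement CTTCCT, a longer form of the GGAA core of ETS factor sites, is in capitals. Other copies of the shorter core are not marked. Adgrl4 lies at chr3:151437632-151437881 on the plus strand and Adgrl2 at chr3:148954636-148954885 on the minus strand.
Adgrl4: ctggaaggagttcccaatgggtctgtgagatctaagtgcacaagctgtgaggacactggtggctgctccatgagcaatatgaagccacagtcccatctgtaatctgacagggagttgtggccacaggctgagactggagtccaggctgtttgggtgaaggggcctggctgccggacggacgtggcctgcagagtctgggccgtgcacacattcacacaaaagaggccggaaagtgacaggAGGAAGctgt
Adgrl2: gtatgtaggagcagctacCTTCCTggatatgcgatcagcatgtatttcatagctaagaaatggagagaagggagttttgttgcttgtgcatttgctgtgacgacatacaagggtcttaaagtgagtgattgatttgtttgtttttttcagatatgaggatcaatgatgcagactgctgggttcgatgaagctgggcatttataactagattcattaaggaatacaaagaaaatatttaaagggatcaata
Each window held the motif at 1 place. It stood on either strand in 29.5% of 32851 such windows of all genes, and in 8 of 23 windows of members.

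Adgra2, or GPR124, works with the membrane protein RECK as a co-receptor for WNT7 ligands and is expressed in endothelium and perivascular cells. Its levels were 51.7, 67.2, 65.3 and 84.6 CPM in batch 1 bleomycin, 92.7, 70.8, 64.4 and 71.9 CPM in batch 2 bleomycin, and 45.6, 49.9, 51.2, 43.1 and 51.7 CPM in saline. The lowest bleomycin library (replicate 5) barely cleared the highest saline library. The log2 change was 0.48 in batch 1 (SE 0.13, adjusted p = 0.0112) and 0.63 in batch 2 (SE 0.13, adjusted p = 0.00209). Without bleomycin replicate 8 the batch 1 value was 0.32 and did not pass (adjusted p = 0.069). Adgra2 overlaps the gene Brf2 in the annotation, and as the strand setting of the counting is not given, reads of the 2 genes may be mixed.

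Of 12 endothelial markers 0 rose and 4 fell in batch 1 (Pecam1, Tek, Kdr and Ramp2), and none was at 0 in all libraries. Their summed level was 1321 to 1807 CPM in batch 1 bleomycin, 1474 to 1724 CPM in batch 2 bleomycin and 1806 to 2187 CPM in saline. Set against that sum, Adgrf5 stood at 424 to 516 CPM per 1000 marker CPM in batch 1 bleomycin, 382.5 to 507 in batch 2 bleomycin, against 659 to 704 in saline. Adgrl4 stood at 64.6 to 78.5, 57.1 to 64.4 and 80.8 to 88.7 in the same groups. Both were therefore also lower per marker CPM in every bleomycin library. Adgrl2 was higher on this scale, at 86.4 to 107, 83.6 to 87.3 and 64.4 to 76.5, and so was Adgra2, at 28.64 to 59.2, 37.5 to 57.0 and 23.1 to 28.62. For Adgra2 the margin was very narrow. With Adgra2 itself higher, and the marker sum lower in all bleomycin libraries but replicate 5, its ratio could hardly be other than higher. The part of endothelial marker content in these results was not tested beyond these ratios. For Adgrf5, summed alveolar type 2 markers were 2789 to 5511 CPM, 3589 to 8833 CPM and 6651 to 8605 CPM, with 5 of 8 markers lower in batch 1 and 0 higher. In batch 2 against saline 0 of these markers were lower and 1 was higher (Napsa). Per 1000 CPM of these markers Adgrf5 was at 169 to 219 in batch 1 bleomycin, 98.7 to 173 in batch 2 bleomycin, against 141 to 186 in saline, and these ranges overlapped.

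**Figure D3:**
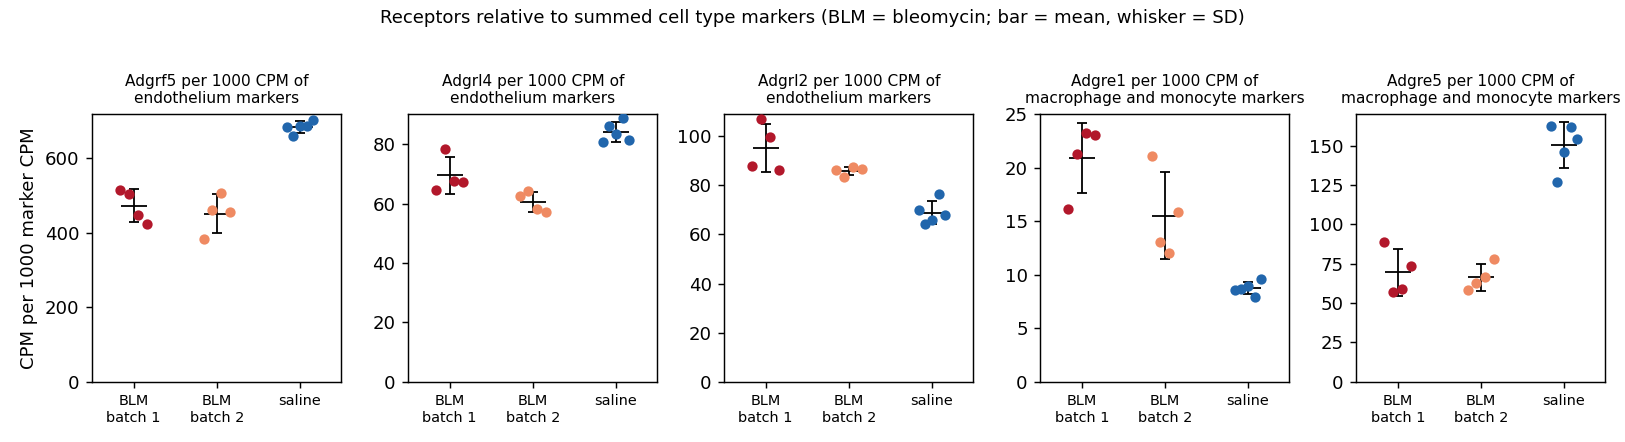
Level of 5 receptors per 1000 CPM of summed endothelial or macrophage and monocyte markers, in batch 1 bleomycin, batch 2 bleomycin and saline (points are libraries, bars the mean, whiskers the SD). Adgrf5, Adgrl4 and Adgre5 are lower per marker CPM in all bleomycin libraries (for Adgrf5 382.5 to 516, against 659 to 704 in saline), and Adgrl2 is higher. For Adgre5 the ratio could only be lower, since its marker sum is higher in every bleomycin library. Adgre1 is higher against the whole list, most of which is Lyz2. Without Lyz2 it overlaps saline in batch 1 (49.2 to 67.6, against 38.8 to 52.2 in saline). In batch 2 it stays above saline without Lyz2 (53.1 to 67.5).

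Of the 5 leukocyte receptors, 3 rose and 1 fell, and 4 are described here. Adgre1 encodes F4/80, the classic surface marker of mouse macrophages. It held 35.4, 51.2, 57.5 and 50.3 CPM in batch 1 bleomycin, 58.0, 34.8, 37.5 and 45.4 CPM in batch 2 bleomycin, and 14.4, 16.2, 17.8, 12.8 and 15.96 CPM in saline. Every bleomycin library was well above every saline library. Its log2 change was 1.66 in batch 1 (SE 0.16, adjusted p = 3.64e-06) and 1.505 in batch 2 (SE 0.17, adjusted p = 1.22e-05).

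Adgre5, or CD97, is a relative of Adgre1 on many leukocytes and also on epithelial and muscle cells, and it binds CD55. It went the other way: 195, 136, 146 and 161 CPM in batch 1 bleomycin, 160, 166, 206 and 222 CPM in batch 2 bleomycin, and 271, 237.5, 290, 260 and 257 CPM in saline. No bleomycin library reached the saline range (log2 change -0.72, SE 0.12, adjusted p = 0.000339 in batch 1, and -0.48, SE 0.12, adjusted p = 0.00708 in batch 2). The ratio of Adgre1 to Adgre5 CPM was 0.182 to 0.395 in batch 1 bleomycin, 0.182 to 0.362 in batch 2 bleomycin, against 0.0491 to 0.0684 in saline. Adgre5 overlaps the gene Ddx39a in the annotation, so its counts may include reads of that gene.

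Of 12 macrophage and monocyte markers 10 rose and 0 fell in batch 1, none was at 0 in all libraries, and their summed level, of which Lyz2 (itself not called, adjusted p = 0.888) was the largest part, was 2181.8 to 2474 CPM in batch 1 bleomycin, 2659 to 3114 CPM in batch 2 bleomycin and 1607 to 1988 CPM in saline. Per 1000 CPM of these markers Adgre1 was at 16.2 to 23.2 in batch 1 bleomycin, 12.1 to 21.2 in batch 2 bleomycin, against 7.94 to 9.58 in saline. The rise of Adgre1 on this scale was smaller without Lyz2. Per 1000 CPM of the other 11 markers, Adgre1 was at 49.2 to 67.6 in batch 1 bleomycin (mean 58.95). It was at 53.1 to 67.5 in batch 2 bleomycin (mean 60.04), against 38.8 to 52.2 for saline (mean 47.41). Batch 1 bleomycin thus overlapped saline, while every batch 2 bleomycin library lay above all saline libraries. The median log2 change of the list was 2.04. Adgre5 was lower in every bleomycin library, at 56.8 to 89.0, 58.4 to 77.8 and 127 to 162 per 1000 CPM of the whole list and at 137 to 372, 168 to 330 and 729 to 859 without Lyz2. With Adgre5 itself lower and both marker sums higher in every bleomycin library, its ratio could only be lower there. Adgre4, a receptor of mouse monocytes and macrophages, did not follow Adgre1. It held 5.85, 4.10, 6.49 and 3.05 CPM in batch 1 bleomycin, 0.332, 2.14, 2.37 and 2.34 CPM in batch 2 bleomycin, and 4.94, 2.44, 4.96, 2.07 and 2.94 CPM in saline. The batch 2 libraries were all below the batch 1 bleomycin libraries, but neither the change over saline in batch 1 (0.47, SE 0.40, adjusted p = 0.396) nor the difference between batches (-1.40, adjusted p = 0.139) passed.

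Adgrg3, or GPR97, a receptor of granulocytes, rose, as did its neighbour on chromosome 8, Adgrg1. Adgrg3 held 8.86, 13.9, 15.3 and 10.97 CPM in batch 1 bleomycin, 9.13, 9.59, 9.81 and 10.8 CPM in batch 2 bleomycin, and 7.29, 3.71, 7.04, 6.16 and 5.07 CPM in saline. All bleomycin libraries were above all saline libraries (log2 change 1.05, SE 0.21, adjusted p = 0.00141 in batch 1, and 0.73, SE 0.22, adjusted p = 0.0176 in batch 2). Of the neutrophil and eosinophil markers, 2 of 7 tested rose in batch 1 (Retnlg and Csf3r) and 0 fell. In batch 2 against saline 0 rose and 1 fell (Siglecf). Ly6g, Epx and Prg2 were too low to test (Ly6g was at 0 in all bleomycin libraries, Epx in all batch 2 bleomycin and all saline libraries). The marker sum was 43.7 to 119 CPM, 45.8 to 103 CPM and 24.9 to 61.3 CPM in batch 1 bleomycin, batch 2 bleomycin and saline. Adgrg3 per 1000 CPM of the granulocyte markers was at 117 to 323, 88.7 to 236 and 114 to 190, so on this scale the groups overlapped. The part of these cells in the rise was not tested.

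Adgrg1, or GPR56, binds type III collagen and transglutaminase and is found on neural progenitors, cytotoxic lymphocytes and other cells. It held 75.6, 83.2, 83.3 and 81.9 CPM in batch 1 bleomycin, 85.7, 88.5, 85.5 and 96.2 CPM in batch 2 bleomycin, and 65.9, 60.6, 66.5, 53.7 and 60.01 CPM in saline. The rise was small and even, with no overlap in either batch (log2 change 0.40, SE 0.08, adjusted p = 0.0017 in batch 1, and 0.54, SE 0.08, adjusted p = 0.000207 in batch 2). T and NK cell markers, of which 3 of 10 were higher and 1 lower in batch 1, summed to 38.7 to 53.5 CPM, 37.5 to 54.6 CPM and 21.7 to 39.5 CPM in batch 1 bleomycin, batch 2 bleomycin and saline. The higher ones were Cd3e, Cd4 and Trac. Of the markers of cytotoxic cells, Gzma was lower (log2 change -1.37, SE 0.35, adjusted p = 0.00723). Cd8a, Nkg7, Prf1, Ncr1 and Klrb1c were not called. The part of all these markers in the level of Adgrg1 was not tested. The window before its neighbour Adgrg3, at chr8:95017442-95017691 on the plus strand, is shown in the same way, since it holds the motif.
Adgrg3: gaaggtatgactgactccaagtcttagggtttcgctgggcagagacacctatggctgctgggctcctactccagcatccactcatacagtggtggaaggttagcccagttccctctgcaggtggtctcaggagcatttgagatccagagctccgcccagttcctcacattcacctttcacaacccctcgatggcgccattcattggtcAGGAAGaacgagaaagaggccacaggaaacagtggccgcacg
This window held the motif at 1 place, and the 2 windows of Adgrg1 held none. Adgrg1 and Adgrg3 both overlap the predicted gene Gm51544, and reads may be shared there.

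Among 6 receptors classed as epithelial, 4 were tested and 1 fell. Adgrv1, a very large receptor needed for the hair bundles of the inner ear and mutated in Usher syndrome, had 4.45, 8.30, 8.19 and 4.55 CPM in batch 1 bleomycin, 5.65, 5.41, 8.88 and 7.91 CPM in batch 2 bleomycin, and 17.6, 19.3, 19.0, 12.8 and 22.1 CPM in saline. Each bleomycin library was below each saline library (log2 change -1.51, SE 0.24, adjusted p = 0.000226 in batch 1, and -1.38, SE 0.25, adjusted p = 0.000681 in batch 2). Airway markers, club and ciliated, fell for 7 of 8 genes and rose for 0, none being at 0 in all libraries, with a sum of 2366 to 3560 CPM in batch 1 bleomycin, 2465 to 6586 CPM in batch 2 bleomycin and 7003 to 12908 CPM in saline. Per 1000 CPM of airway markers Adgrv1 was at 1.45 to 3.32, 1.35 to 2.29 and 1.49 to 2.61 in these groups, which overlapped. Per 1000 CPM of alveolar type 1 markers it was at 1.74 to 4.34, 2.04 to 3.07 and 4.24 to 7.34, and batch 1 bleomycin overlapped saline, which it did not without Clic5 (2.31 to 5.73, 2.56 to 3.91 and 6.14 to 10.67). Of 8 alveolar type 1 markers 4 fell and 0 rose, with a sum of 1377 to 2554 CPM, 2124 to 2895 CPM and 3015 to 3773 CPM. The part of either cell type was not tested.

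Adgrg2 (GPR64), best known from the epididymis, stood at 9.58 ± 2.03 CPM in batch 1 bleomycin, 7.36 ± 1.43 CPM in batch 2 bleomycin and 6.80 ± 0.83 CPM in saline (SD, n = 4, 4 and 5) and did not pass (log2 change 0.49, SE 0.19, adjusted p = 0.0611). It passed without bleomycin replicate 5 (0.59, adjusted p = 0.0343) and without saline replicate 5 (0.56, adjusted p = 0.049), and by limma-voom on all libraries (0.47, adjusted p = 0.0428). Adgrf2 and Adgrf4, epithelial receptors that overlap on chromosome 17, averaged 0.56 and 0.93 CPM in batch 1 bleomycin, 0.34 and 0.23 CPM in batch 2 bleomycin, and 1.53 and 1.44 CPM in saline. In saline both were highest in replicates 4 and 5 (2.703 and 2.72 CPM for Adgrf2, 3.46 and 2.21 CPM for Adgrf4), and reads may be shared between the 2 genes. Neither passed in batch 1 (adjusted p = 0.244 and 0.518), and Adgrf4 was called lower in batch 2 (log2 change -2.60, SE 0.85, adjusted p = 0.0296) from 8 counts in 4 libraries. Its batch 2 bleomycin libraries (0 to 0.408 CPM) overlapped saline (0.292 to 3.46 CPM).

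The remaining tested members are broadly expressed or known from the nervous system, and 2 rose and 2 fell among 7. Adgrl3, a latrophilin that binds teneurins and FLRT proteins at synapses, had the lowest p of the family. It held 89.1, 93.3, 74.4 and 80.7 CPM in batch 1 bleomycin, 92.0, 86.0, 82.8 and 85.7 CPM in batch 2 bleomycin, and 190, 203, 210, 211 and 170 CPM in saline. The highest bleomycin library lay far below the lowest saline library (log2 change -1.22, SE 0.09, adjusted p = 7.14e-07 in batch 1, and -1.19, SE 0.09, adjusted p = 6.17e-07 in batch 2). Capillary aerocyte markers, of which 4 of 5 fell and 0 rose, summed to 180 to 251 CPM in batch 1 bleomycin, 236 to 262 CPM in batch 2 bleomycin and 327 to 425 CPM in saline. Adgrl3 was at 356 to 431 CPM per 1000 CPM of these markers in batch 1 bleomycin, 316 to 376 in batch 2 bleomycin, against 484 to 646.5 in saline. More of this sum was Tbx2 in bleomycin libraries (means of 126, 165 and 155 CPM in batch 1 bleomycin, batch 2 bleomycin and saline), and per 1000 CPM of the other 4 markers Adgrl3 was at 703 to 1165, 817 to 1315 and 809 to 1113, which overlapped. The median log2 change of the 5 markers was -1.39. Against the endothelial markers Adgrl3 was at 46.3 to 70.6, 48.1 to 58.3 and 94.0 to 117 per 1000 CPM. Adgra3 (GPR125), a relative of Adgra2, held 49.9, 33.6, 41.1 and 35.5 CPM in batch 1 bleomycin, 32.2, 40.8, 39.1 and 33.1 CPM in batch 2 bleomycin, and 55.8, 56.2, 62.8, 57.2 and 57.9 CPM in saline. It thus moved opposite to Adgra2, with all bleomycin libraries below saline (log2 change -0.54, SE 0.12, adjusted p = 0.00289 in batch 1, and -0.67, SE 0.12, adjusted p = 0.000697 in batch 2).

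Adgrb2 (BAI2), a receptor of the brain, was low but higher in bleomycin, at 0.824, 2.43, 1.73 and 4.63 CPM in batch 1 bleomycin, 5.31, 2.45, 1.52 and 1.17 CPM in batch 2 bleomycin, and 0.682, 0.928, 0.657, 0.880 and 1.03 CPM in saline. Bleomycin replicate 5 lay within the saline range. The log2 change of 1.54 (SE 0.51, adjusted p = 0.0309) was 0.97 without bleomycin replicate 8 (adjusted p = 0.176), and it also missed the threshold without bleomycin replicate 6 or saline replicate 1, 3 or 4 (adjusted p = 0.0577 to 0.0682). Adgrd1 (GPR133) showed the same order of batch 1 bleomycin libraries without passing: 19.4, 38.5, 25.0 and 53.8 CPM in batch 1 bleomycin, 42.3, 24.2, 19.7 and 22.8 CPM in batch 2 bleomycin, and 29.6, 19.9, 21.5, 23.9 and 21.2 CPM in saline (log2 change 0.55, SE 0.28, adjusted p = 0.158, 0.75 with adjusted p = 0.0433 without bleomycin replicate 5, and 0.22 with adjusted p = 0.569 without bleomycin replicate 8). In both genes, and in Adgra2, bleomycin replicates 8 and 1 were the highest of their batch and replicate 5 the lowest of batch 1. The summed fibroblast and mural markers, among them Col1a1 with means of 2593, 2371 and 276 CPM in batch 1 bleomycin, batch 2 bleomycin and saline, stood at 2108, 4817, 3687 and 6039 CPM in batch 1 bleomycin replicates 5 to 8, at 5554, 3508, 3104 and 3346 CPM in batch 2 bleomycin replicates 1 to 4 and at 1913 to 2160 CPM in saline, with 2 of 10 markers higher and 2 lower in batch 1 and none at 0 in all libraries. The higher sum in bleomycin was that of Col1a1: the other 9 markers summed to 1179, 1670, 1374 and 2057 CPM in batch 1 bleomycin replicates 5 to 8, to 1443 to 1574 CPM in batch 2 bleomycin and to 1650 to 1836 CPM in saline. The batch 1 order of both sums was that of all 3 receptors. In batch 2 the whole sum was highest in replicate 1, as were the receptors. The sum without Col1a1 was highest in replicate 3 instead (1493, 1519, 1574 and 1443 CPM in replicates 1 to 4). Per 1000 CPM of the whole sum Adgra2 was at 13.96 to 24.6 in batch 1 bleomycin, 16.7 to 21.5 in batch 2 bleomycin, against 19.9 to 26.7 in saline, which overlapped. Without Col1a1 it was higher in every bleomycin library, at 40.3 to 47.6, 40.9 to 62.1 and 23.5 to 31.0. The other 9 markers did not move together, and Myh11 was the largest of them by mean. Its means were 350, 393 and 563 CPM in the same groups. It was called lower in batch 1, as was Tcf21. Pdgfrb averaged 256, 260 and 134 CPM and was called higher (log2 change 0.93, SE 0.13, adjusted p = 8.43e-05). That change was larger than that of Adgra2 (0.48). Of 9 tested neuron and glia markers 1 rose and 2 fell, with a sum of 17.6 to 31.8, 12.3 to 42.9 and 14.6 to 76.3 CPM. The part of these markers in the levels was not tested.

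Adgrg6 (GPR126), which binds type IV collagen and laminin and is needed for myelination by Schwann cells, stood at 97.9 ± 21.6 CPM in batch 1 bleomycin, 89.0 ± 10.2 CPM in batch 2 bleomycin and 104 ± 7.10 CPM in saline. Adgrl1, the remaining latrophilin, stood at 82.3 ± 13.3, 84.3 ± 10.5 and 87.0 ± 1.76 CPM in the same groups (SD, n = 4, 4 and 5). Neither passed (log2 change -0.08, SE 0.13, adjusted p = 0.673 for Adgrg6, and -0.08, SE 0.10, adjusted p = 0.604 for Adgrl1).

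The 6 members too low to test were Adgra1, Adgrb1, Adgrb3, Adgrf1, Adgrf3 and Adgrg7, with summed counts of 11 to 54 over all libraries. Adgrb1 (BAI1), a receptor for phosphatidylserine on dying cells, had 0 to 8 counts in bleomycin libraries and 2 to 8 in saline libraries. Adgrf1 had 11 counts, all in bleomycin libraries and at most 4 in any, and 0 in saline, where a count of 0 over all 5 libraries allows up to 0.0343 CPM (3 counts, counting error only, and a low limit, since most low counts were even and so may not be independent). At this depth no difference in these members was detectable.

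**Figure D4:**
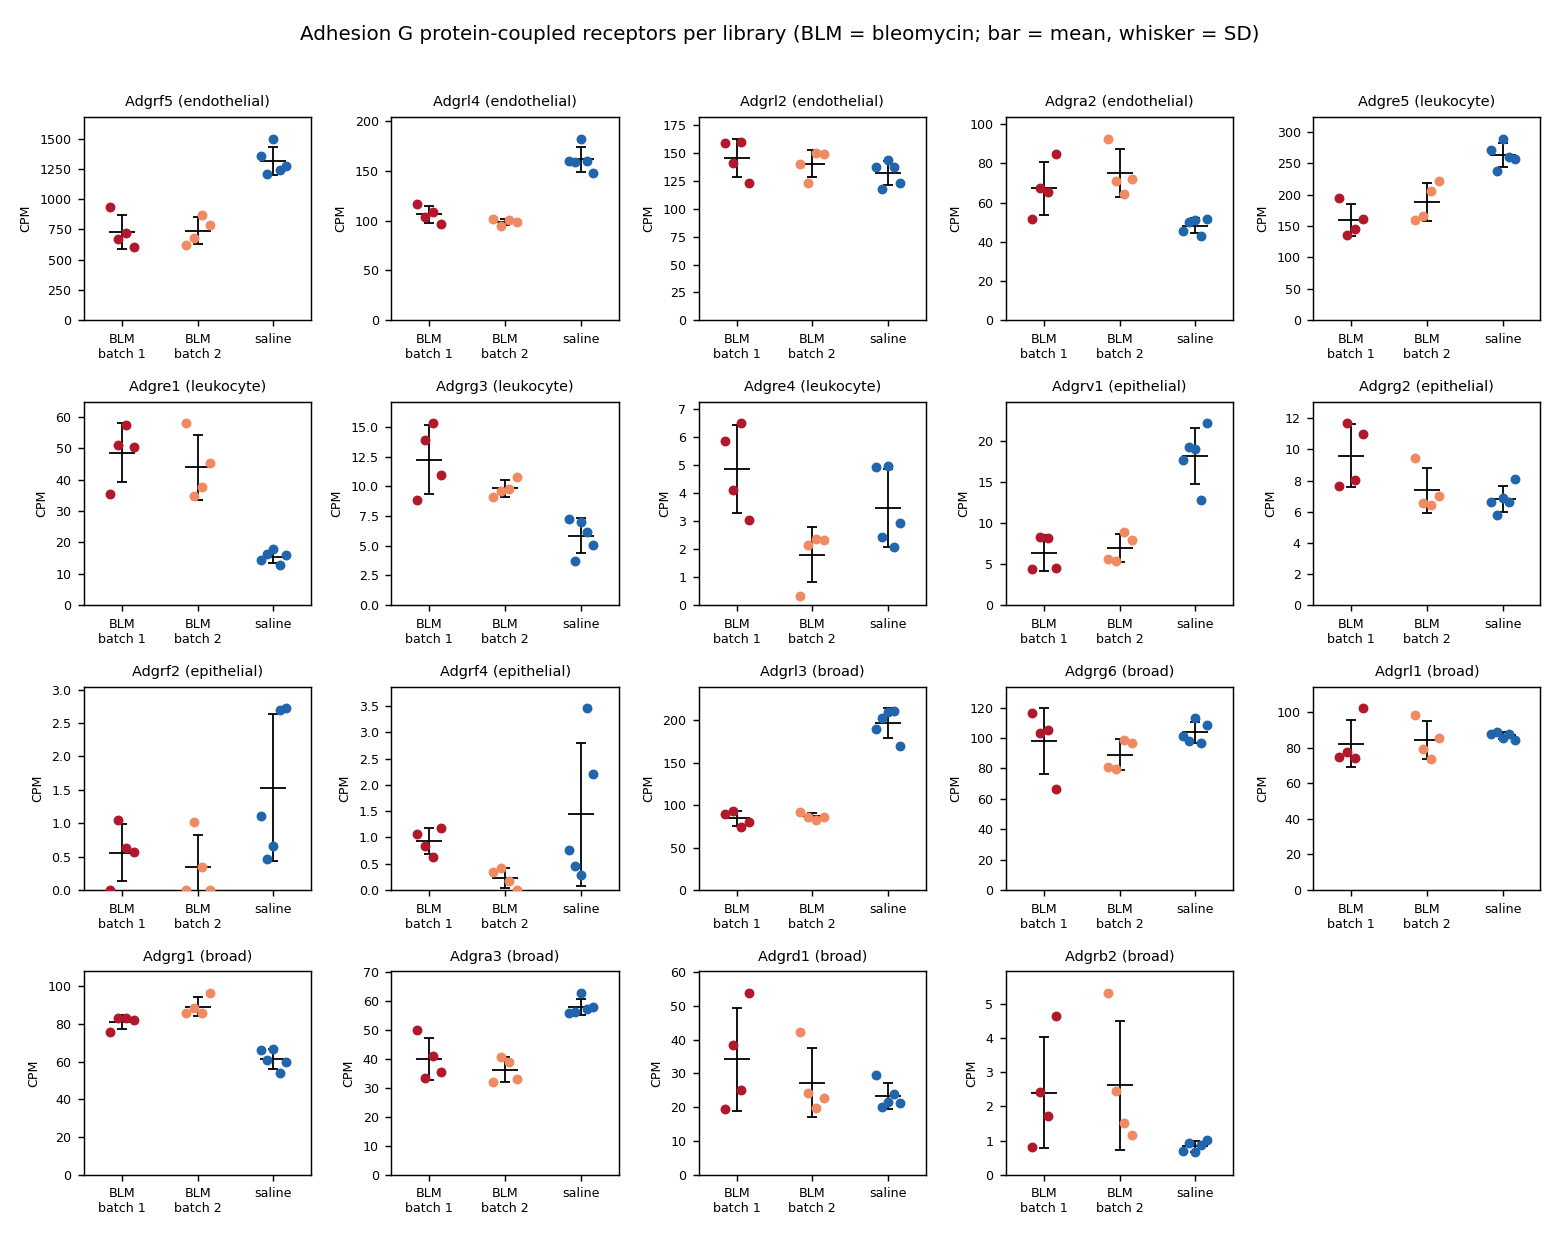
Level in CPM of 19 tested receptors in each library of batch 1 bleomycin, batch 2 bleomycin and saline, each panel from 0 on its own linear scale, with the mean (bar) and SD (whisker) and the class given to each gene in brackets. Adgrf5, Adgrl4, Adgre5, Adgrl3, Adgra3 and Adgrv1 lie lower in all bleomycin libraries than in saline, and Adgre1, Adgrg3, Adgrg1 and Adgra2 lie higher, Adgra2 by a narrow margin (51.7 CPM in the lowest bleomycin library).

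Batches of bleomycin libraries were compared directly, 4 against 4, which is also the test of whether the change over the shared saline libraries differed. edgeR called 0 of 20 tested members, and 2 had an unadjusted p under 0.05 (Adgre4 and Adgrf4), while DESeq2 and limma-voom also called 0. Over all tested genes 1.68% were called, 0.547% higher and 1.13% lower in batch 2.

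Genes around the receptors were followed in lists of related genes. The CELSR receptors belong to the same family under another name, and 1 of 3 was called: Celsr2 was at 30.5 ± 2.16 CPM in batch 1 bleomycin, 40.0 ± 4.16 CPM in batch 2 bleomycin and 51.2 ± 8.34 CPM in saline (log2 change -0.75, SE 0.12, adjusted p = 0.000281). Of 30 known extracellular ligands and partners 26 were tested, 9 rose and 3 fell in batch 1, with a median log2 change of 0.33 against 0.03 for all tested genes. Over all tested genes 17.5% rose and 13.4% fell. In batch 2 against saline 12 of the list were higher and 2 lower, where 15.7% and 13.2% of all tested genes were. Col3a1, the ligand of Adgrg1, averaged 2300 ± 841 CPM in batch 1 bleomycin and 360 ± 58.2 CPM in saline (log2 change 2.68, SE 0.27, adjusted p = 1.80e-05). Col4a1 and Col4a2, chains of the ligand of Adgrg6, rose by 1.67 (SE 0.18) and 1.38 (SE 0.18). Reck, the partner of Adgra2, moved opposite to it, at 27.4 ± 3.399 CPM in batch 1 bleomycin and 60.8 ± 8.65 CPM in saline (log2 change -1.15, SE 0.12, adjusted p = 5.14e-06). Plxdc2, a ligand of Adgrd1, fell by 0.51 on the log2 scale (SE 0.10). Ptk7, another ligand of Adgrd1, chosen after its values were seen, went the other way. It rose by 0.64 in batch 1 (SE 0.15, adjusted p = 0.00592) and by 0.99 in batch 2 (SE 0.16, adjusted p = 0.000291). Sftpd and Cd55, ligands of Adgrf5 and Adgre5 chosen after their values were seen, were at 214 ± 35.3 and 84.6 ± 3.69 CPM in batch 1 bleomycin and 198 ± 32.3 and 68.2 ± 11.4 CPM in saline and did not pass (adjusted p = 0.672 and 0.0521). In batch 2 bleomycin Sftpd averaged 338 ± 92.1 CPM and was called higher than saline (log2 change 0.77, SE 0.18, adjusted p = 0.0048).

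Of 22 downstream genes for G proteins, exchange factors, arrestins and Rac adaptors 7 rose and 2 fell in batch 1, with a median log2 change of 0.05. Over all tested genes 17.5% rose and 13.4% fell. In batch 2 against saline 7 of the list were higher and 5 lower, where 15.7% and 13.2% of all tested genes were. Arrb2, an arrestin that ends receptor signalling, rose most among those named, to 44.7 ± 7.93 CPM in batch 1 bleomycin against 18.6 ± 3.35 CPM in saline (log2 change 1.26, SE 0.17, adjusted p = 6.40e-05). The inhibitory subunit Gnai2 rose by 0.54 (SE 0.10), Gna12, another G protein subunit, by 0.39 (SE 0.08), and the receptor kinase Grk2 by 0.53 (SE 0.11). Gnao1 fell by 1.14 on the log2 scale (SE 0.22) and the exchange factor Arhgef12 fell by 0.36 (SE 0.08).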

How the data were processed

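Total RNA libraries were made from 8 ng of RNA out of 10 µm FFPE lung sections with a SMARTer Stranded Total RNA-Seq Pico kit, per the labels' protocols. The authors deposited whole-number counts per gene symbol without normalization, and the submitters' processing notes name cutadapt 4.4, STAR 2.7.10b, featureCounts 2.0.3 and DESeq2 1.42.1 on mm39. Strand setting, annotation release and use of molecular identifiers are not given in the sources used. Of the counts from 1 to 10 in a library, 78.4% to 86.1% were even. The second deposited table, normalized values, was not used.

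Genes were kept by filterByExpr over batch and treatment groups (20468 genes), scaled by TMM and compared by robust quasi-likelihood fits (edgeR 4.0.16, R 4.3.3) with batch and treatment as additive terms, on all 13 libraries. The treatment term thus sets 4 batch 1 bleomycin libraries against 5 saline libraries. A gene was called where its p, adjusted by Benjamini-Hochberg over all tested genes, was under 0.05. The SE is the log2 change divided by the root of the F statistic. The common biological coefficient of variation was 0.306. Libraries were checked for duplicates: 38 pairs within a treatment gave a chi-square of 9.18 to 235 per degree of freedom. Exon lengths are GENCODE M21 unions (all 26 members), and gene neighbours, overlaps and upstream sequences come from RefSeq on GRCm38.p6, whose coordinates were not used with the counts. The tests were checked on simulated counts with 200 changed genes.

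The rule named every member, up to 6 called genes of each list by lowest p, and any others as stated; 1 member and 1 list gene are counted but not reported here. The members, classes and lists were chosen with earlier results of these data known. Alternatives were RLE factors, 2 other filters, DESeq2 1.42.0, limma-voom (limma 3.58.1), no batch term, batch 1 only, bleomycin replicate 8 moved to saline, a replicate block, each library left out and, chosen after seeing the data, protein-coding genes only and marker sums without the most abundant marker.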

Additional observations from a re-analysis of the deposited data

Results flagged for a closer look

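In 60 groups of 4 or 5 libraries (20 tested receptors in 3 groups each), 2 held a library far from the others of its group, where chance flags about 1 in 20. Adgre4 stood at 0.332 CPM in bleomycin replicate 1, against 2.14 to 2.37 CPM in the other batch 2 bleomycin libraries. Adgrl1 stood at 102 CPM in bleomycin replicate 8, the library with conflicting labels, against 74.4 to 77.6 CPM in the other batch 1 bleomycin libraries.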

How the results depend on the processing

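Over 23 alternatives the 20 tested members gave 458 values, and 431 kept their side of the threshold, 0 called values changed sign, 23 calls were lost and 4 were gained. With bleomycin replicate 8 moved to saline, 645 genes were called (399 higher, 246 lower) in place of 6319 (3586 and 2733), with 0 members higher, 1 lower (Adgrl3) and 3 called in batch 2 bleomycin against saline in place of 12. This setting lost 11 of the 23 calls. The log2 change was then 1.17 for Adgre1, 0.91 for Adgrg3, 0.32 for Adgrg1, -0.63 for Adgre5 and Adgrf5, -0.45 for Adgrl4, -0.38 for Adgra3 and -1.18 for Adgrv1, and 0.16 for Adgrb2 and 0.18 for Adgra2. Adgrd1, not called, was at 0.09 under the replicate block. Most of the other 12 were those of Adgrb2. Adgrb2 was lost by limma-voom (1.34, adjusted p = 0.0647), under the replicate block (1.14, adjusted p = 0.16) and without 5 single libraries. Adgra2 was lost without bleomycin replicate 8. The cause was not tested.

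With each library left out in turn, 5123 to 6546 genes were called (2863 to 3757 higher, 2119 to 2897 lower), with 4 to 7 members higher, 6 lower, 0 called between batches and 10 to 13 called in batch 2 against saline. Nothing states that the replicate numbers pair libraries. Correlations of deviations (-0.349 to 0.0406 over 5 numbers) gave no sign of pairing, but so few numbers cannot exclude it. A fit with the replicate block, to which bleomycin replicates 1 to 4 of batch 2 contribute most, called 4747 genes, 4 members higher and 6 lower. Adgrl3 kept its call under every alternative run (log2 change -1.28 to -1.05), and Adgre1, Adgre5, Adgrf5, Adgrl4, Adgrv1, Adgra3, Adgrg1 and Adgrg3 under all but the moved library. Members below about 1 CPM are limited by depth.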
